A study of Mus musculus with 2 samples.

Results

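A set of 10 genes of vascular inflammation were followed across endothelial cells of GFP-treated and NeuroD1-treated mice. They are the cytokines Il1b, Il6, Csf3 and Tnf, the receptor Il1r1, the secreted glycoprotein Lrg1, and the leukocyte adhesion molecules Icam1, Vcam1, Sele and Selp. They were found by gene symbol, and all 10 are among the 53465 gene rows of the expression table. The cells came from C57Bl/6 mice of the tie2-cre genotype, which carry a Cre recombinase under the Tie2 promoter, and the groups differ by treatment, GFP or NeuroD1. The Tie2 promoter is active in endothelium and also in part of the blood lineage. Each group has 1 library, made from 10000 lysed cells, with cells collected from 3 mice. The labels give no vector, dose, time, age or statement of whether these animals had a stroke. With 1 library per group, the differences below could not be checked against replicates, and none has a p-value.

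Endothelial cells that meet interleukin 1 or tumour necrosis factor switch on a shared programme through the NF-kB transcription factors. They release cytokines such as interleukin 6 and granulocyte colony stimulating factor, and they place adhesion molecules on the vessel surface. Selectins let leukocytes roll along the wall, and ICAM-1 and VCAM-1 hold them by binding leukocyte integrins. In brain vessels this step precedes leukocyte entry into the tissue after injury.

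The upstream sequences of 4 of these genes are shown, those with a RefSeq window whose ratio of NeuroD1 to GFP differed from 1 beyond counting error. Each is the 250 bases before the RefSeq transcription start (GRCm38.p6), 5′ to 3′ on the strand of the gene. The Lrg1 gene of the GENCODE annotation used for the reads begins at 56122001, inside the Lrg1 window. The marked match of Lrg1, 34 to 25 bases before the RefSeq start, thus lies within that annotated gene. Capitals mark matches on either strand to GGGNNNNNCC or GGNNNTTCC, short forms of the NF-kB site that can overlap each other and were chosen with the sequences in view. Il6 and Icam1 stood lower in NeuroD1, and Il1b and Lrg1 stood higher.
Il6, chr5:30012864-30013113 (plus strand): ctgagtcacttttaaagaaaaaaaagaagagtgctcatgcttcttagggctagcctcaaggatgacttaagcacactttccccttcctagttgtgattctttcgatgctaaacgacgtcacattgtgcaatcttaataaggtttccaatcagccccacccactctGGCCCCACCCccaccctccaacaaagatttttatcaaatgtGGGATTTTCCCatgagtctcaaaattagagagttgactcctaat
Icam1, chr9:21015690-21015939 (plus strand): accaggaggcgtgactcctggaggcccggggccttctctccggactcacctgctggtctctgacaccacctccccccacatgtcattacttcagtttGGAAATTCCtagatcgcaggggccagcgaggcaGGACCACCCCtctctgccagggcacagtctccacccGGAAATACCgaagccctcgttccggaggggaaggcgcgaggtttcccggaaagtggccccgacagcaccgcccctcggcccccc
Il1b, chr2:129371140-129371389 (minus strand): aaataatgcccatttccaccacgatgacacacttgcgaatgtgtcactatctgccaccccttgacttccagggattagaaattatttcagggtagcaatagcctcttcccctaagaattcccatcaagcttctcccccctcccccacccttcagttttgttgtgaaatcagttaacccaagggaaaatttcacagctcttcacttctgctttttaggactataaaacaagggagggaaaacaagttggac
Lrg1, chr17:56121947-56122196 (minus strand): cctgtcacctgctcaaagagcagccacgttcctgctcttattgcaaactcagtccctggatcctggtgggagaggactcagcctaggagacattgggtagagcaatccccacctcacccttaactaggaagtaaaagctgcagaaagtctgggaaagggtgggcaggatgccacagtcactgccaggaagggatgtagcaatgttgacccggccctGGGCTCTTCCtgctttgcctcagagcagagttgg

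A RefSeq window was matched for 8 of the 10 genes, all but Csf3 and Vcam1. Of these 8, 7 held GGGNNNNNCC and 7 held GGNNNTTCC in at least one window, Il1b being the exception for both. Among all 32851 upstream windows of the same length, 45.8% held GGGNNNNNCC and 15.7% held GGNNNTTCC. The 8 genes have 9 windows, so counts of genes and shares of windows are unlike measures. As the motifs were chosen with the sequences in view, no enrichment can be read from them. The Il6 window holds GGGATTTTCC from 44 to 35 bases before the start, and the Icam1 window holds GGAAATTCC from 153 to 145 bases before it. A match is a description of letters only, and binding was not measured here.

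Values are FPKM, reads scaled by the authors to exon length and by a factor for each library. Each value also corresponds to a whole number of reads that was recovered from it. The totals that the values imply, 2208978 and 1950269, are not the sums of the recovered reads, so that equal reads in both libraries appear as a FPKM ratio of 1.13. The recovered reads came to 2011130 in GFP and 2001426 in NeuroD1, of which the predicted gene Gm10800 took 37.7% and 41.9%. In NeuroD1 the implied total is below the recovered reads, so it is a scaling factor and not a plain count of reads. Neurod1 itself stood at 0.664 FPKM under GFP and 182 FPKM under NeuroD1, on 4 and 970 reads. Of 15 pan-endothelial markers, 14 in each library were above the 95th percentile of chemoreceptor genes. Markers of other cell types passed it too. In GFP and NeuroD1 these were 2 and 3 of 10 neuron markers, 4 and 3 of 7 erythroid and 2 and 2 of 10 mural markers. Of 9 oligodendrocyte lineage markers 2 and 2 passed, and of 8 astrocyte markers 1 and 0. The neuron marker Rbfox3 stood at 26.8 and 31.0 FPKM, the highest of its list, whose medians were 2.41 and 2.34 FPKM. Passing this level thus does not mark a gene's RNA as endothelial. Chemoreceptors, the 1515 receptors for odours, pheromones and taste, are not known to be used by endothelium. Their median was 1.54 FPKM under GFP and 1.40 FPKM under NeuroD1, and their 95th percentile 4.38 and 4.79 FPKM. A value under the latter lies within the range of genes that these cells are not known to express.

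The 10 genes held few reads in both libraries. They ranged from 1.01 to 9.61 FPKM in GFP, with a median of 4.53 FPKM, and from 2.96 to 8.35 FPKM under NeuroD1, with a median of 3.93 FPKM. The medians of all protein-coding genes were 3.10 and 2.98 FPKM. In GFP the genes lay above 10.8% (Lrg1) to 96.2% (Csf3) of protein-coding genes. In NeuroD1 they lay above 49.5% (Il6) to 93.6% (Lrg1). In GFP 5 genes (Csf3, Icam1, Il6, Tnf and Vcam1) and in NeuroD1 3 genes (Lrg1, Il1b and Tnf) stood above the 95th percentile of chemoreceptor genes of the same library. Il1r1, Sele and Selp were within the chemoreceptor range in both libraries. In total the 10 genes held 368 reads in GFP and 283 in NeuroD1.

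The order of the levels turned over between the libraries at its ends. In GFP, Csf3 was highest, followed by Icam1, Il6, Tnf, Vcam1, Il1r1, Sele, Selp, Il1b and Lrg1. In NeuroD1, Lrg1 was highest, followed by Il1b, Tnf, Icam1, Sele, Csf3, Il1r1, Selp, Vcam1 and Il6. Lrg1 and Il1b, the lowest in GFP, were thus the highest in NeuroD1. In both libraries, all 9 pairs of neighbours in this order had overlapping 95% counting intervals (exact Poisson limits of the reads), so that only ranks further apart are separated by counting error.

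**Figure D1:**
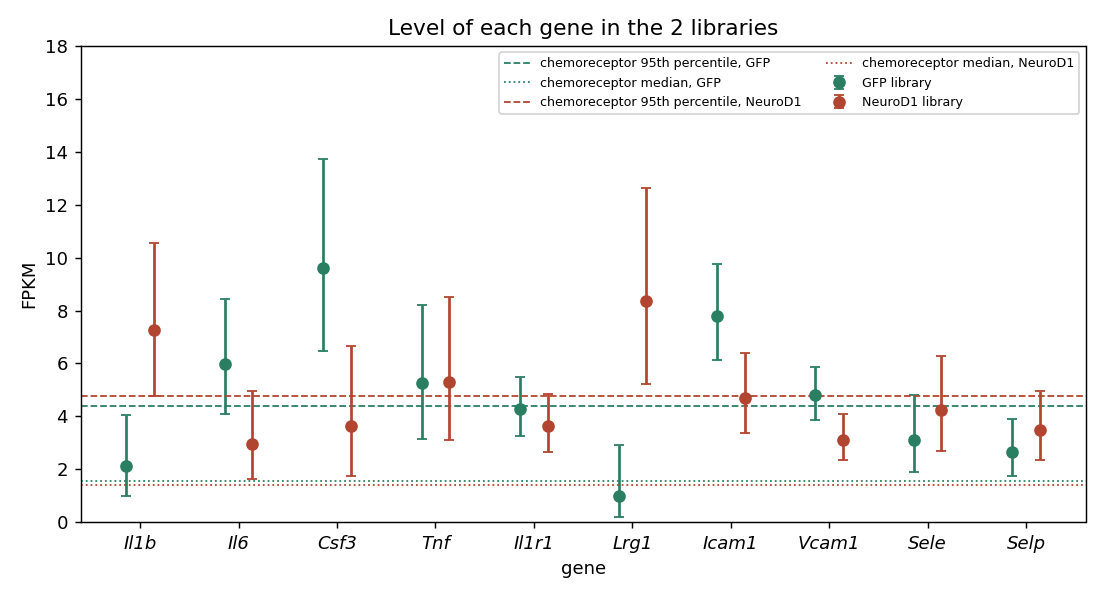
Level in FPKM (vertical axis) of the 10 genes (horizontal axis) in the GFP library (green) and the NeuroD1 library (red). Bars are exact Poisson 95% intervals of the reads, which cover counting error only, and lines mark the median (dotted) and 95th percentile (dashed) of chemoreceptor genes. Lrg1 and Il1b lie lowest in GFP and highest in NeuroD1, and Csf3, Icam1 and Il6 lie highest in GFP.

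Of the 10 genes, 6 reached the minimum of 5 FPKM in one library or both that was set for counting. On the log2(FPKM + 1) scale, which understates the change of low genes, 2 of them (Il1b and Lrg1) passed a 2-fold difference upward in NeuroD1 and 1 (Csf3) downward. Il1b, Lrg1 and Csf3 each reached the minimum only in the library where they stood higher. With 5 FPKM required in both libraries, 1 gene remained and the counts were 0 and 0. The same rule counts 12.9% of all 14679 genes past the minimum as higher and 15.6% as lower, and 3.25% and 3.31% of the 6408 protein-coding ones. The median difference of the 10 genes, NeuroD1 minus GFP, was -0.086 and their mean 0.096, so median and mean differ in sign. The median was 0.030 over all genes past the minimum and -0.016 over protein-coding genes at 1 FPKM or more. Such medians depend on how the libraries were scaled, so their nearness to 0 may follow from the scaling. Of the 10, 5 lay above 0 and 5 below.

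Ratios of NeuroD1 to GFP were given exact Clopper-Pearson 95% intervals from the reads, which cover counting error only. The interval excluded 1 for 6 of the 10 genes. Il1b and Lrg1 lay above 1, and Il6, Csf3, Icam1 and Vcam1 lay below it. Of 14791 protein-coding genes that held 20 or more reads, 12.1% had an interval excluding 1. Of the 12702 with 20 to 150 reads, a range that spans the 25 to 148 reads of the 10 genes, 10.9% did, with 4.72% above 1 and 6.16% below it. The genes were chosen with earlier values of these libraries known, so their share is a description. Between the libraries, protein-coding genes in that read range varied 1.71 times as much as counting alone gives. With the counting variance multiplied by that value, an approximate interval excluded 1 for Il1b, Lrg1, Csf3 and Icam1, and no longer for Il6 and Vcam1. The approximate interval excluded 1 for 4.34% of protein-coding genes in the same read range. The multiplier was taken from these genes, so that share follows in part from it. For Lrg1, with 3 reads in GFP, the approximate upper limit was 40.2, under the exact one of 43.3.

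**Figure D2:**
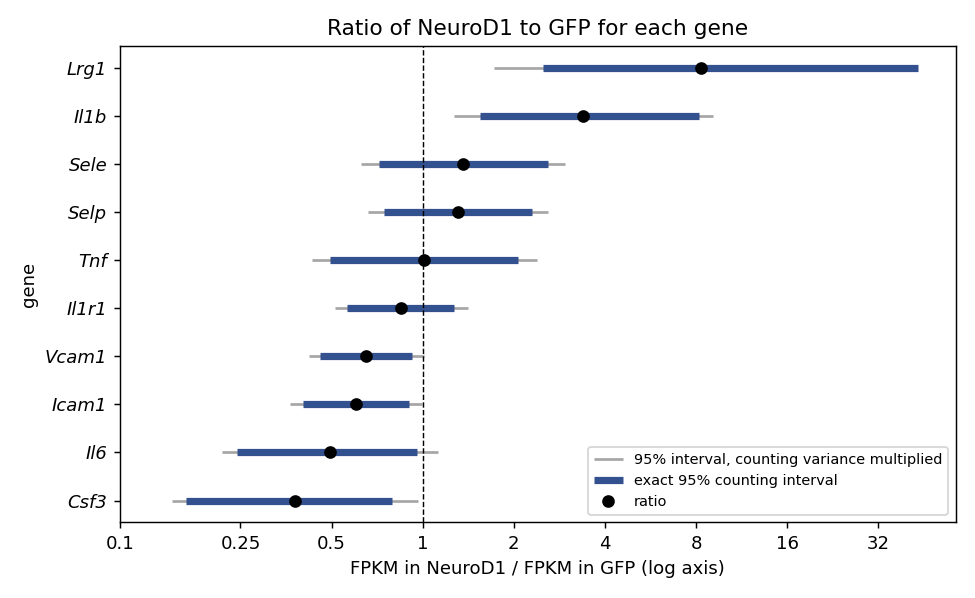
Ratio of FPKM under NeuroD1 to FPKM in GFP on a log axis (horizontal) for each gene (vertical), with the exact 95% counting interval (thick) and the interval with multiplied counting variance (thin). Lrg1 and Il1b lie to the right of 1, Csf3 and Icam1 to the left under both intervals, and Il6 and Vcam1 to the left under the exact interval only.

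The cytokine ligands differed in direction. Il1b, which encodes interleukin 1 beta, an inflammatory cytokine made chiefly by myeloid cells (ENSMUSG00000027398, on the minus strand of chromosome 2, 129364570 to 129371139, in GRCm38), stood at 2.14 FPKM under GFP and 7.26 FPKM under NeuroD1. The 9 and 27 reads behind them correspond to a ratio of 3.40 (95% interval 1.55 to 8.21). Il1b lay above 69.8% of chemoreceptor genes in GFP and above 97.8% in NeuroD1, so that the GFP value is within the background range and the NeuroD1 value is beyond its 95th percentile. An exon of Il1bos on the opposite strand overlaps Il1b by 25 bases, and Il1bos had 4 and 7 reads. Whether counting used strand was not given in the sources used here.

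Il6, which encodes a cytokine that drives the acute phase response (ENSMUSG00000025746, plus strand of chromosome 5, 30013114 to 30019981), was lower in NeuroD1. It stood at 5.97 FPKM under GFP and 2.96 FPKM under NeuroD1, on 32 and 14 reads, with a ratio of 0.496 (interval 0.244 to 0.955). With the multiplied variance the upper limit was 1.13. Il6 passed 97.6% of chemoreceptor genes in GFP and 85.7% in NeuroD1. Il1b was 0.358 times as high as Il6 in GFP and 2.46 times as high in NeuroD1, per exon length. Their counting intervals were 0.977 to 4.06 and 4.08 to 8.42 FPKM in GFP, which do not overlap, and 4.78 to 10.6 and 1.62 to 4.96 FPKM under NeuroD1, which do.

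Csf3, which encodes the granulocyte colony stimulating factor that raises neutrophil output from marrow (ENSMUSG00000038067, plus strand of chromosome 11, 98701263 to 98703629), was the highest of the 10 genes in GFP. It stood at 9.61 FPKM under GFP and 3.63 FPKM under NeuroD1, on 30 and 10 reads, with a ratio of 0.378 (interval 0.165 to 0.794). Its GFP level passed 98.9% of chemoreceptor genes and its NeuroD1 level 91.0%, within the background range. The upper limit stayed below 1 with the multiplied variance, at 0.962.

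Tnf, which encodes tumour necrosis factor, an inducer of the adhesion programme (ENSMUSG00000024401, minus strand of chromosome 17, 35199381 to 35202007), was the ligand with nearly equal levels. It stood at 5.25 FPKM under GFP and 5.32 FPKM under NeuroD1, on 19 and 17 reads. The ratio of 1.01 had an interval of 0.495 to 2.06, so a difference of up to about 2-fold either way was not detectable at this depth. Tnf was the one gene above the chemoreceptor 95th percentile in both libraries.

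**Figure D3:**
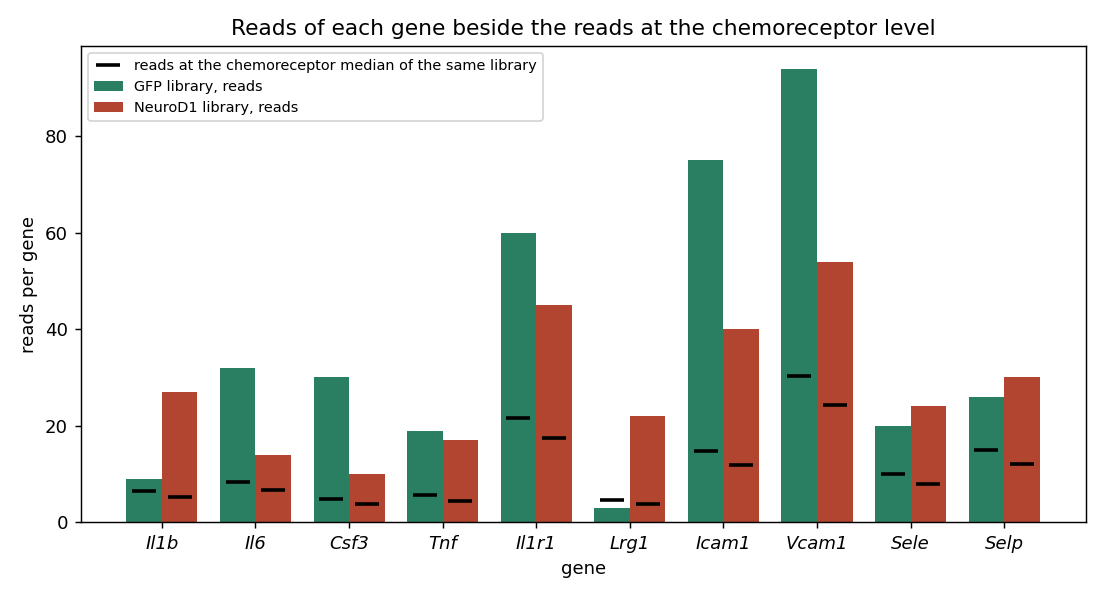
Reads per gene (vertical axis) of the 10 genes in the GFP (green) and NeuroD1 (red) libraries, with a black mark at the reads that a gene of the same exon length would hold at the chemoreceptor median of that library. Lrg1 in GFP, with 3 reads, is the one bar below its mark, and Il1b in GFP, with 9 reads, is near it.

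Il1r1, the receptor through which interleukin 1 alpha and beta signal and a gene of brain venous endothelium (ENSMUSG00000026072, plus strand of chromosome 1, 40225080 to 40317257), stood at 4.27 FPKM under GFP and 3.63 FPKM under NeuroD1. With 60 and 45 reads, the ratio was 0.849 (interval 0.564 to 1.27). A gene of its exon length would hold 21.7 and 17.4 reads at the chemoreceptor median. The receptor had more reads than at that median in both libraries. It passed 94.4% of chemoreceptor genes in GFP and 91.0% in NeuroD1, within their range in both. Its levels did not differ beyond counting error between the libraries.

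Lrg1 encodes leucine-rich alpha-2-glycoprotein, a secreted protein that modulates TGF-beta signalling in vessels (ENSMUSG00000037095, minus strand of chromosome 17, 56119678 to 56122001). It stood at 1.01 FPKM under GFP and 8.35 FPKM under NeuroD1, the largest difference of the 10 genes. Its annotated exon length of 1408 bases does not give whole reads, but the ratio of the libraries is that of 3 to 22 reads, with an exon length of 1351 bases. On these reads the ratio was 8.31 (interval 2.495 to 43.3). The GFP value passed 25.1% of chemoreceptor genes and is below their median, while the NeuroD1 value passed 98.3%. The direction rests on 25 reads in all.

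The adhesion molecules of the immunoglobulin family both stood lower in NeuroD1. Icam1, the ligand of leukocyte beta-2 integrins (ENSMUSG00000037405, plus strand of chromosome 9, 21015985 to 21028817), stood at 7.79 FPKM under GFP and 4.70 FPKM under NeuroD1. With 75 and 40 reads, the ratio was 0.604 (interval 0.401 to 0.898), and the upper limit was 0.997 with the multiplied variance. The antisense gene Gm47079 overlaps 11.7% of the exon bases of Icam1 and had 16 and 12 reads. Icam1 passed 98.3% of chemoreceptor genes in GFP and 94.9% in NeuroD1.

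Vcam1, the ligand of the integrin VLA-4 on monocytes and lymphocytes (ENSMUSG00000027962, minus strand of chromosome 3, 116109949 to 116129688), had the most reads of the 10 genes. It stood at 4.797 FPKM under GFP and 3.12 FPKM under NeuroD1, on 94 and 54 reads, with a ratio of 0.651 (interval 0.457 to 0.919). The upper limit was 1.01 with the multiplied variance. At the chemoreceptor median its long exons would hold 30.2 and 24.3 reads. Vcam1 passed 96.1% of chemoreceptor genes in GFP and 87.5% in NeuroD1, where it is within their range. Gm43109, which lies antisense and overlaps Vcam1 by 61 bases, had 18 reads in GFP and 0 in NeuroD1. Without strand, reads in the overlap cannot be told apart.

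Both selectins had ratios above 1 with intervals that held 1. Sele, which encodes E-selectin, made by activated endothelium (ENSMUSG00000026582, plus strand of chromosome 1, 164048234 to 164057677), stood at 3.11 FPKM under GFP and 4.23 FPKM under NeuroD1, on 20 and 24 reads, with a ratio of 1.36 (interval 0.720 to 2.59). Selp, which encodes P-selectin, stored in endothelial granules and in platelets (ENSMUSG00000026580, plus strand of chromosome 1, 164115264 to 164150026), stood at 2.67 FPKM under GFP and 3.49 FPKM under NeuroD1, on 26 and 30 reads, with a ratio of 1.31 (interval 0.747 to 2.301). Both lay within the chemoreceptor range in each library. Antisense genes overlap Selp on the other strand, Gm16548 over 9.93% of its exon bases with 6 and 7 reads and Gm16587 over 4.21% with 3 and 4 reads.

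Cytokines and P-selectin are also made by blood cells, so their markers are given beside these values. Of 12 neutrophil markers, 6 in GFP and 4 in NeuroD1 were above the chemoreceptor 95th percentile, and their summed level was 80.1 FPKM under GFP and 81.5 FPKM under NeuroD1. Single neutrophil markers differed in direction within that sum. The protease gene Elane had 11.96 and 1.56 FPKM, a ratio of 0.131 (interval 0.0253 to 0.426), and S100a8 had 7.83 and 2.96 FPKM (interval 0.0887 to 1.25), while S100a9 stood at 10.4 and 20.6 FPKM (interval 0.931 to 4.42) and Retnlg at 3.72 and 10.96 FPKM (interval 0.985 to 10.55). Of 16 monocyte, macrophage and microglia markers, 5 and 3 were above it, with sums of 59.5 and 55.9 FPKM. Of 9 platelet markers, 4 and 2 were above it, with sums of 37.97 and 26.7 FPKM, and Gp1ba, a platelet receptor gene, stood at 9.49 and 4.72 FPKM (ratio 0.497, interval 0.297 to 0.808). These single markers were chosen after their values were seen, and their intervals cover counting error only. Of 9 T, NK and B cell markers, 3 were above it in each library, with sums of 34.1 and 34.7 FPKM. The 15 pan-endothelial markers summed to 164 and 175 FPKM. No marker of these lists was listed at 0 in either library. The part of other cells in the differences was not tested, and in bulk samples fewer cells of a type and less RNA per cell cannot be told apart.

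Genes that signal with these 10 were taken from 7 lists of 82 different genes in the table, all at 1 FPKM or more in one library or both. Of these, 1 passed a 2-fold difference upward in NeuroD1 and 2 downward, against 6.46% of protein-coding genes at the same minimum in either direction. The interval was above 1 for 5 and below 1 for 3 of the 79 with recovered reads. All 8 are among the 75 that hold 20 or more reads, of which they make up 10.7%, against 12.1% of protein-coding genes at that read minimum. Intervals of related genes, here and in the lists below, cover counting error only. The multiplied variance, under which Il6 and Vcam1 lost their call, was not applied to them. The median difference was 0.013, near that of protein-coding genes.

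In the interleukin 1 family, 1 of 16 genes had an interval that excluded 1. Il1a, the gene of interleukin 1 alpha and the neighbour of Il1b on chromosome 2, stood at 4.13 FPKM under GFP and 1.56 FPKM under NeuroD1 (ratio 0.378, interval 0.123 to 0.993). It had 18 and 6 reads, and both levels lie within the chemoreceptor range. The counting intervals of Il1a and Il1b lay on opposite sides of 1, and the multiplied variance was not applied to Il1a. Il1rn, the receptor antagonist, at 6.46 and 6.86 FPKM (interval 0.762 to 1.48), and the kinase gene Irak2, at 6.16 and 6.51 FPKM, had the highest levels of the list. The median of the list was 0.048.

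In the interleukin 6 family, 1 of 11 genes had an interval that excluded 1. Stat3, the transcription factor downstream of the receptor, stood at 6.03 FPKM under GFP and 8.07 FPKM under NeuroD1 (ratio 1.34, interval 1.05 to 1.71), while its ligand gene Il6 was lower. Il6ra, the receptor subunit that binds interleukin 6, stood at 7.91 and 7.54 FPKM (interval 0.746 to 1.21). The median of the list was 0.022.

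In the tumour necrosis factor list, 2 of 13 genes had an interval that excluded 1. Tnfrsf1b, the second TNF receptor, stood at 2.37 FPKM under GFP and 5.103 FPKM under NeuroD1 (ratio 2.15, interval 1.22 to 3.90). Tradd, an adaptor of the first TNF receptor, stood at 2.67 and 6.32 FPKM (ratio 2.37, interval 1.11 to 5.38). The GFP levels of Tnfrsf1b and Tradd lie within the chemoreceptor range. Adam17, the protease that sheds TNF, at 16.6 and 19.3 FPKM (interval 0.977 to 1.38), and Ltb, a lymphotoxin gene, at 9.26 and 8.12 FPKM (interval 0.492 to 1.54), were the most abundant. The median of the list was 0.016.

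None of the 7 colony stimulating factor genes had an interval that excluded 1, and 2 of the 7 had no recovered reads. Their median difference was -0.28. Kitl, the stem cell factor gene, stood at 9.27 FPKM under GFP and 7.89 FPKM under NeuroD1 (interval 0.642 to 1.13), and Csf2ra at 5.14 and 5.82 FPKM with no interval.

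Of 19 other adhesion and transmigration genes of endothelium, 1 had an interval that excluded 1. Jam3, a junctional adhesion molecule, stood at 1.27 FPKM under GFP and 4.01 FPKM under NeuroD1 (ratio 3.15, interval 1.42 to 7.66), both within the chemoreceptor range. Pecam1, at 12.4 and 14.4 FPKM (interval 0.939 to 1.45), and Esam, at 12.6 and 11.8 FPKM (interval 0.664 to 1.31), both junctional adhesion genes, had the highest levels. The median of the list was -0.042.

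Of 11 genes for the leukocyte side of adhesion, 2 had an interval that excluded 1. Glg1, which encodes a ligand of E-selectin, stood at 4.53 FPKM under GFP and 6.44 FPKM under NeuroD1 (ratio 1.42, interval 1.03 to 1.97). The integrin subunit genes Itgal, at 8.06 and 8.74 FPKM (interval 0.829 to 1.42), and Itgb7, at 7.76 and 11.03 FPKM (interval 0.953 to 2.13), were the most abundant. The median of the list was -0.010.

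Among 5 genes of the TGF-beta signalling that LRG1 modulates, receptors and the ligand gene Tgfb1, 1 had an interval that excluded 1. Tgfbr1, the type I receptor, stood at 3.53 FPKM under GFP and 2.12 FPKM under NeuroD1 (ratio 0.600, interval 0.362 to 0.974), both within the chemoreceptor range. Eng, the co-receptor endoglin, at 8.16 and 10.9 FPKM (interval 0.965 to 1.85), and Acvrl1, the receptor ALK1, at 8.07 and 8.18 FPKM (interval 0.720 to 1.42), were the most abundant. The median of the list was 0.017.

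**Figure D4:**
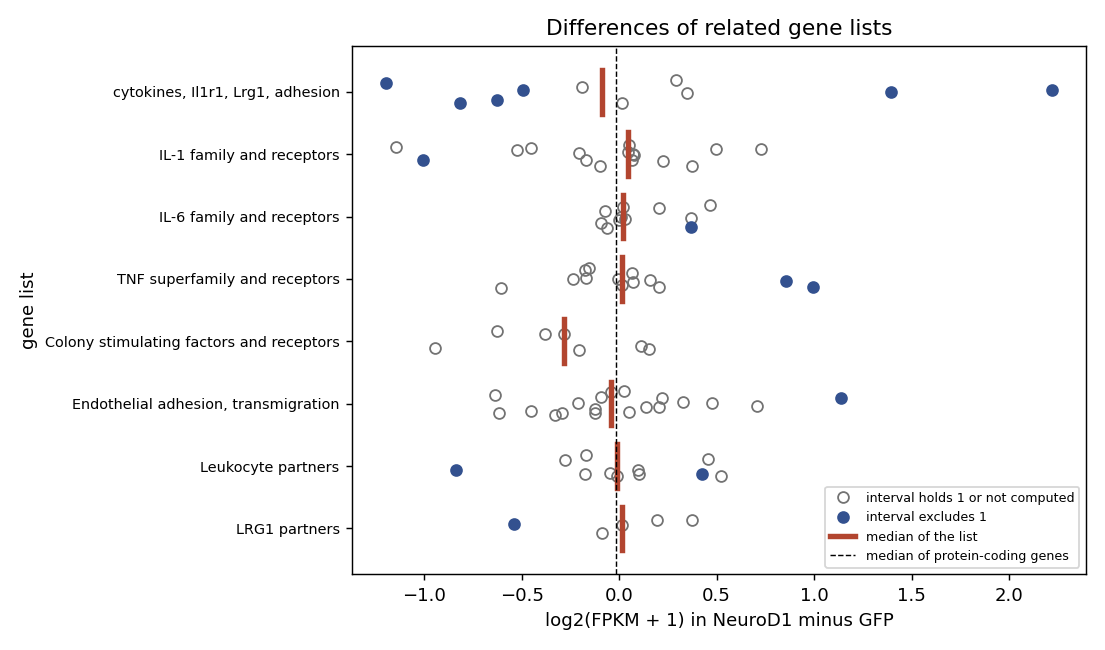
Difference in log2(FPKM + 1), NeuroD1 minus GFP (horizontal axis), of the 10 genes (top row) and of the genes of 7 related lists at 1 FPKM or more in one library or both. Filled points have a ratio interval that excludes 1, red bars are list medians and the dashed line is the median of protein-coding genes. The top row runs from Csf3 at -1.20 to Lrg1 at 2.22, and the list medians lie between -0.28 and 0.048.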

How the data were processed

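Expression was measured in 2 libraries of endothelial cells from tie2-cre mice, 1 treated with GFP and 1 with NeuroD1. The authors deposited 1 table of FPKM per gene. Alignment and counting tools in the submitters' processing notes are featureCounts 1.6.3 and Bowtie2 2.3.5.1, with DESeq (no version) and the GRCm38 build. Per the labels' protocols, reverse transcription used DRUG-seq primers, which mark the 3' end of a transcript. FPKM divides by exon length, so levels of genes of unequal length compare only as far as reads follow length, which was not tested. The handling of strand and molecular identifiers was not given in the sources used here, so a read may not stand for 1 molecule.

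FPKM times merged exon length in GENCODE M21 was a whole multiple of 452.7 in GFP and of 512.7 in NeuroD1, within 0.02 reads, for 51162 genes (95.7%). For list genes with another length, reads were taken from the whole-number ratio of the libraries, within a relative tolerance of 2e-06. That step and the multiplied variance (12702 protein-coding genes with 20 to 150 reads) were added after seeing the data. Differences are log2(FPKM + 1). A 2-fold call needs 5 FPKM in one library or both, or 1 FPKM for genes of related lists. All 10 genes are described, and of each related list the genes whose interval excluded 1 and the 2 with the highest mean FPKM. The values of 1 list gene are not reported here. The genes and lists were chosen with earlier results of these data known. Read recovery and the exact intervals were tested on simulated data that held counting variance only. That test does not cover the larger variance found between the libraries. Alternatives were other pseudocounts, minimums and scalings and background subtraction. The work used pandas 2.3.3, scipy 1.17.1, numpy 2.4.6 and, for plots, matplotlib 3.10.9, in Python 3.11.15.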

Additional observations from a re-analysis of the deposited data

How the results depend on the processing

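No paired analysis was possible because 1 library per group forms no pairs, and none can be left out in turn. The 2 genes at least 2-fold higher and the 1 lower were 1 and 0 with a pseudocount of 5, and 0 and 0 at 5 FPKM in both libraries, where 1 gene remained for counting. At 20 FPKM none of the genes could be counted. The lower count was 2 after scaling to an equal sum of FPKM and 4 with the interval in place of the fold. The median difference of the 10 genes was -0.105 with a pseudocount of 0.1, -0.0469 with a pseudocount of 5, -0.279 with an equal sum of FPKM, -0.162 with an equal sum of pan-endothelial markers, -0.0733 with the chemoreceptor median subtracted, 0.0955 as a mean and -0.0738 after the median of genes of similar FPKM was subtracted, a setting added after seeing the data. Scaling to an equal sum of FPKM took the protein-coding median from -0.016 to -0.197. The 2 intervals above 1 and 4 below 1 had the same counts under the 3 planned scalings and when both libraries were scaled to the total of recovered reads, a setting added after seeing the data that gave a median difference of -0.229, a protein-coding median of -0.150 and a Tnf ratio of 0.899. They were 2 and 2 with the multiplied variance, and 1 and 4 with reads from the annotated length only, which leaves out Lrg1 by construction. For the other changes the cause was not tested. All 70 differences of single genes under other settings stayed within their counting intervals, which are wide at these reads. Of 49 single ratios, 48 kept their call or stayed within their interval, and that of Il1b was 9.87 with the chemoreceptor median subtracted. The ratio of Lrg1 could not be computed with that subtraction, because its GFP level is below the median, and it is left out of the 49.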

Other observations

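The genes next to these 10 on the chromosome give a view of the same regions. The coagulation factor gene F5 lies 1811 bases beyond Selp on chromosome 1. It had 82 reads in GFP and 48 in NeuroD1 (ratio 0.663, interval 0.454 to 0.958), while Selp had more reads in NeuroD1 with an interval that held 1. Whether the ratios of neighbours differ was not tested. Intervals of neighbours cover counting error only, without the multiplied variance.

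Tnf lies between Ltb and Lta on chromosome 17. Lta, which encodes lymphotoxin alpha, stood at 7.20 FPKM under GFP and 8.16 FPKM under NeuroD1 (interval 0.598 to 2.14), and as for Tnf and Ltb its interval held 1. Beside Csf3 on chromosome 11, Med24, a Mediator subunit gene 961 bases away, stood at 7.63 FPKM under GFP and 4.24 FPKM under NeuroD1 (ratio 0.556, interval 0.394 to 0.777), and Psmd3, a proteasome subunit gene on the other side, stood at 4.74 and 5.06 FPKM (interval 0.707 to 1.61). Next to Icam1, the adhesion gene Icam4 had 0 reads in both libraries, which allows up to 3 reads in each. F5, Lta, Med24, Psmd3 and Icam4 are a selection from the nearest protein-coding neighbours, made after seeing the data. Distance alone does not give this selection. Sema6b and Plin5, 1083 and 2081 bases from Lrg1, lie nearer than Psmd3, 5283 bases from Csf3, and are not described.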
